A study of Mus musculus with 40 samples.

Results

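Phlda3 is a p53 target gene whose product restrains the kinase Akt, and it is described here with its close relatives Phlda1 and Phlda2 and with the kinase genes Akt1 and Akt2. The members are the rows of the deposited table whose gene name is one of these 5, out of 18024 genes, read in all 5 tissues of the series. RNA was sequenced from pancreas, kidney, ovary, heart and small intestine of C57BL/6j mice at 60 days after birth, 24 hours after p53 was acutely activated. Each tissue gave 3 libraries of Tg mice (Mdm2+/- Cag-CreERTg), which keep 1 intact Mdm2 allele, and 5 libraries of FMTg mice (Mdm2FM/- Cag-CreERTg), in which Mdm2 is lost. Both genotypes therefore lack 1 Mdm2 allele and both carry CreER, a Cre recombinase that tamoxifen activates, driven by the ubiquitously active Cag promoter. The labels used here do not say how Cre was activated, whether Tg mice had the same treatment, or which part of Mdm2 the FM allele loses. The 40 libraries came from 13 mice: every Tg tissue was taken from the same 3 mice, and 10 FMTg mice gave the others. All 3 Tg mice also gave an ovary and are thus female, whereas 2 of the 5 FMTg mice in the pancreas and 3 of the 5 in kidney, heart and small intestine have an ovary library.

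Akt is a serine/threonine kinase that promotes survival and growth. The lipid kinase PI3K makes phosphoinositides in the plasma membrane, Akt docks on them through its pleckstrin homology (PH) domain, and PDK1 and the mTORC2 complex then phosphorylate it. The Phlda3 protein is little more than a PH domain, and it competes with Akt for the same lipids. In the pancreas the gene is best known from islet cells, where its loss raises Akt activity and favours neuroendocrine tumours. Phlda2 is an imprinted gene that limits placental growth, and Phlda1 encodes a related protein with a PH domain that is induced by many stress and growth stimuli. Akt1 is the widely expressed family member that drives growth and survival, and Akt2 is the one most tied to insulin-driven glucose uptake. Messenger RNA was measured here, so none of the values below is an amount of protein or a level of Akt phosphorylation.

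p53 binds DNA as a tetramer on a pair of abutting 10-base half-sites. The first 50 bases of protein-coding GENCODE M21 transcripts were searched for the best 20-base match to 2 abutting p53 half-sites on GRCm38, and the lines below give 30 bases around the best match of 4 members, with the 20 matched bases in capitals. They are shown because Phlda3 and Akt2, which behaved differently in these data, reach the same score. The consensus half-site reads the same on both strands, and the scan was chosen after the letters of Phlda3 had been seen.
Phlda3 (chr1:135766119-135766148, plus strand): gagcggtgGAACATGTAAGGGCACATCCcg
Phlda1 (chr10:111506286-111506315, plus strand): aggCGGCGCGGGCGGCCGTGGGCggtgggg
Phlda2 (chr7:143502495-143502524, minus strand): agcagagcGAGCGCATTTGGTGCAACCTtt
Akt2 (chr7:27608662-27608691, plus strand): ccctGAGCTCACTCAAGCTAGGTGacagcg
Phlda3 matched the consensus at 16 of 20 bases, from base 9 to base 28 of its only scanned transcript. The best matches of the others shown were 16 of 20 in 1 of 11 transcripts of Akt2, 13 in Phlda2 and 11 in Phlda1. At least 16 matches were found in 3.45% of the 48832 transcripts scanned. An exact half-site, searched on both strands in RefSeq windows of GRCm38 that run from 250 bases before to 50 bases after a gene start, was found in 8.36% of 32851 windows. Of these genes it was in 0 of 1 window of Phlda3, 0 of 1 of Phlda2 and 1 of 4 of Akt2. A letter match of this kind is a description and does not show that p53 binds there.

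The genes lie on GRCm38 as follows in GENCODE M21, with the whole gene given each time. Phlda3 (ENSMUSG00000041801.5) spans chromosome 1, 135766119 to 135769136, on the plus strand, and has 1559 bases of exon. Phlda1 (ENSMUSG00000020205.8) spans chromosome 10, 111506286 to 111508645, on the plus strand, with 2205 bases of exon. The lincRNA gene Gm28592 lies on the opposite strand inside it and overlaps its exons over up to 1088 bases. The strand setting of the authors' counting is not given in the sources used here, so reads of Phlda1 and Gm28592 cannot be told apart. Phlda2 (ENSMUSG00000010760.5) spans chromosome 7, 143501545 to 143503150, on the minus strand, with 1121 bases of exon. Akt1 (ENSMUSG00000001729.14) spans chromosome 12, 112653821 to 112674884, on the minus strand, with 4098 bases of exon. Akt2 (ENSMUSG00000004056.15) spans chromosome 7, 27591552 to 27640826, on the plus strand, with 7131 bases of exon.

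Depth ran from 7.16 to 13.9 M (mega) reads per library in the pancreas, 14.6 to 27.9 in kidney, 8.97 to 23.0 in ovary, 15.3 to 29.0 in heart and 14.4 to 23.3 in small intestine. FMTg replicates 4 and 5 of each tissue, which come from the mice with the lowest identification numbers and are called the low-numbered mice here, stood apart. At an equal depth of 7.16 M reads they showed 12004 to 13771 genes in the pancreas against 15009 to 16080 in the other 6 libraries, and fewer genes than the others in each of the other tissues too. Mdm2 itself, which checks the labels, had a higher level in every FMTg than in every Tg library of each tissue, with log2 changes from 0.77 in ovary to 2.00 in kidney, although it is the gene that is disrupted. The reads cannot check the deletion, since the removed part is not stated. Trp53, the gene of p53, passed the test in no tissue (log2 changes from -0.26 to 0.35, limma adjusted p from 0.564 to 0.990). Marker genes of each labelled tissue were highest in that tissue, but the ovary libraries also held pancreas RNA: 7 of 7 acinar markers together took 15.4% of reads in Tg ovary replicate 1, 0.0794% to 0.294% in the other 2 Tg libraries and 0.0007% to 3.17% in FMTg. Markers of ovary granulosa, theca and oocyte, 5 of 5 with reads, took 0.0099% to 0.0770% there. Other tissues held such reads too. Acinar markers took 1.05% to 1.46% in Tg and 0.157% to 2.46% in FMTg small intestine, and up to 1.18% in kidney and 0.282% in heart. Kidney markers took up to 0.258% in pancreas, 0.128% in small intestine and 0.117% in heart. These are whole tissues, so fewer cells of a type and less RNA per cell cannot be told apart.

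Phlda3 was higher in FMTg than in Tg mice in all 5 tissues. Values below are normalised reads, that is, reads recovered from the deposited values and divided by the authors' size factor of the library. In the pancreas the 3 Tg libraries had 197, 227 and 278 normalised reads of Phlda3, and the 5 FMTg libraries had 1141, 1179, 822, 1139.7 and 1412. The lowest FMTg pancreas thus lay far above the highest Tg pancreas. In the kidney Tg libraries had 149, 131 and 116, and FMTg libraries had 549, 1015, 636, 891 and 831. In the heart Tg libraries were within 167 to 177, and FMTg libraries had 724, 1045, 672, 785 and 779. The heart Tg values were the most alike of any tissue, and the groups in kidney and heart were as far apart as in the pancreas. In the small intestine Tg libraries had 187, 50.0 and 160.0, and FMTg libraries had 395, 510.3, 578, 866 and 945. Tg small intestine replicate 2 was low, with 50 reads of Phlda3 in all. In the ovary Tg libraries had 280.0, 292 and 320.4, and FMTg libraries had 376, 605, 453, 767 and 922. The ovary groups did not overlap either, but FMTg ovary replicate 1 came close to the Tg range.

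**Figure D1:**
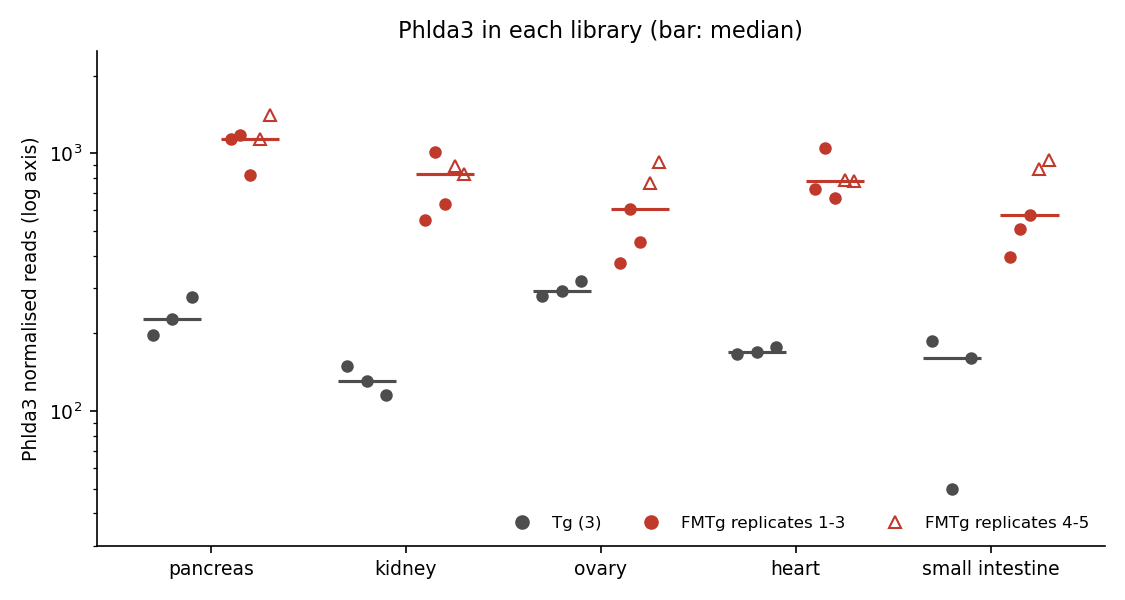
Phlda3 in each of the 40 libraries, as normalised reads on a log axis, by tissue. Grey points are Tg and red points FMTg; open triangles mark FMTg replicates 4 and 5, and bars are medians. All FMTg libraries lie above all Tg libraries of their tissue, with the smallest gap in the ovary (320.4 against 376).

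The log2 change of Phlda3, FMTg minus Tg with the standard error of the limma fit, was 2.25 ± 0.21 in pancreas, a 4.74-fold rise (adjusted p = 0.00333). It was 2.49 ± 0.20 in kidney, a 5.62-fold rise (limma adjusted p = 5.20e-04), and 2.17 ± 0.16 in heart, a 4.51-fold rise (limma adjusted p = 0.00326). In the small intestine it was 2.38 ± 0.44, as large as in the tissues above but with the widest error, and did not pass (limma adjusted p = 0.652, 95% interval 1.37 to 3.38). In the ovary it was 0.98 ± 0.28 and did not pass (limma adjusted p = 0.489, 95% interval 0.35 to 1.61). Phlda3 was thus 1 of 5 tested members called in the pancreas, where 0.446% of 15262 genes were called, 1 of 5 in kidney (0.616% of 15415) and 1 of 4 in heart (0.019% of 15769). In the heart the 3 called genes were Phlda3, Eda2r and Aen. No gene at all was called in the ovary (0% of 16486) or the small intestine (0% of 16104). There limma gave 1049 and 388 genes at an unadjusted p below 0.05, and voom on the recovered reads called 0 in both, with 907 and 389 at that level. An exact two-sided permutation test of Phlda3 alone gave p = 0.0179 in each tissue but the ovary, the smallest that 56 splits allow, and 0.0357 in ovary. Adjusted over the 5 tissues these exact p-values were 0.0223 and 0.0357.

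The rise in the pancreas and in the heart lost its call under some settings, with little change in size. On values of log2(RPM + 1), where RPM are reads scaled by the total of the library, which replace both the authors' scaling and their transformation, it was 1.97 in pancreas (limma adjusted p = 0.0780) and 2.04 in heart (0.0584), and among mice with an ovary library it was 2.06 (0.0670) and 2.18 (0.106). The heart call also went without Tg heart replicate 2 (2.16, limma adjusted p = 0.0517).

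All FMTg above all Tg libraries was seen for 4.68% of tested genes in the pancreas, 4.17% in kidney, 3.43% in ovary, 3.42% in heart and 1.69% in small intestine. Phlda3 was among the 17 genes of 14532 (0.117%) that showed it in all 5. The other 16 were Aaas, Aen, Arhgap35, Bscl2, Eda2r, Ercc5, Gtse1, Mdm2, Msh6, Pcgf3, Pidd1, Polk, Psrc1, Sesn2, Svop and Trp53inp1. By size of log2 change Phlda3 ranked 12th in the small intestine, 24th in the kidney, 52nd in the pancreas, 160th in the heart and 367th in the ovary. By p it ranked 2nd in the heart, 5th in the pancreas, 12th in the kidney, 13th in the small intestine and 219th in the ovary.

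A model of all 40 libraries, with the mouse as a random block, gave a mean log2 change of Phlda3 over the 5 tissues of 2.11 ± 0.17, or 4.30-fold (limma adjusted p = 2.55e-10). It ranked 6th by p and 14th by size of 17284 genes, of which 0.706% were called. Of the 5 members only Phlda3 was called in this model. The smaller change in the ovary was not shown to differ from the other tissues, and ovary alone was not tested against the rest. The F test asks whether the changes of all 5 tissues are equal. For Phlda3 it gave an unadjusted p of 0.0016 and a limma adjusted p of 0.154 over all genes, where 0.133% of genes passed. On reads simulated for these groups, both the F test and the test of the mean over tissues called more unchanged genes, in 1 draw, than their adjusted p states. With 200 genes changed, 86 of 160 genes called by the F test were unchanged, and 22 of 176 called by the mean. Some of the 200 were changed equally in every tissue, and the others in the kidney only. The equally changed genes should not pass the F test either, but any that it called are not among the 86. In a draw with no gene changed, the F test called 13 and the mean 4 of 17284 genes. The simulated libraries were drawn independently of the mouse, so the effect of shared mice was not simulated.

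Phlda3 also varied among FMTg mice. The low-numbered mice lay higher than replicates 1 to 3 in ovary and the small intestine without overlap (767 and 922 against 376 to 605, and 866 and 945 against 395 to 578). Against the Tg mean, their log2 change was 1.48 and that of replicates 1 to 3 was 0.65 in ovary, and 2.90 against 2.02 in small intestine. In the pancreas the same values were 2.42 and 2.13, in the kidney 2.66 and 2.38, and in the heart 2.15 and 2.18. FMTg replicate 2, from the same mouse in all 5 tissues, had the most Phlda3 of replicates 1 to 3 in pancreas, kidney, ovary and heart. In the heart it was the highest library (1045), and there the 6 fibroblast and smooth muscle markers took 0.811% of reads, against 0.119% to 0.261% in the other 7 hearts. That library also had the lowest share of cardiomyocyte markers, 1.47% against 3.05% to 4.67% in the other 7. Its shares of erythroid, macrophage and neutrophil markers were the highest of the hearts. Without it the heart change was 2.07 ± 0.12 (limma adjusted p = 0.00142).

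Markers of other cell types moved with some of these groups, and their part in the Phlda3 values was not tested beyond the values given here. In the ovary the 2 low-numbered libraries, which were the highest in Phlda3, held the most adipocyte marker RNA (5 of 5 markers with reads, 0.251% and 0.291% of reads, against 0.0073% to 0.0529% in the other 6). They also held the most macrophage marker RNA (0.0260% and 0.0351%, against at most 0.0162%). The same held for endothelial markers (0.0540% and 0.0743%, against at most 0.0395%). Without Tg ovary replicate 1, the library rich in acinar RNA, the ovary change was 0.94 (limma adjusted p = 0.999). In the pancreas the 5 erythroid markers took 0.0150% to 0.0385% of reads in FMTg and 0.0043% to 0.0072% in Tg, and in the heart the 4 macrophage markers took 0.0221% to 0.0632% in FMTg and 0.0123% to 0.0178% in Tg. In the kidney the 4 macrophage markers were lower in FMTg, at 0.0056% to 0.0081% against 0.0084% to 0.0102% in Tg, and so were the 4 neutrophil markers, at 0.00097% to 0.0020% against 0.0022% to 0.0059%. The 5 ovary markers, at most 0.0014% of heart reads, were lower in FMTg than in Tg hearts without overlap. In the small intestine the low Tg replicate 2 had the highest share of the 5 B and T cell markers, 0.0104% against 0.0030% to 0.0057% in the other 7. Without that library the change of Phlda3 was 1.82 (limma adjusted p = 0.934).

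Among Tg mice Phlda3 was highest in the ovary (median 292 normalised reads), then in the pancreas (227), and these 2 did not overlap each other or the heart (169). Heart, small intestine (160.0) and kidney (131) overlapped as neighbours. Among FMTg mice the order of medians was pancreas (1141), kidney (831), heart (779), ovary (605) and small intestine (578), and each overlapped the next. The ovary thus had the most Phlda3 in Tg mice and the smallest log2 change. These orders between tissues rest on the authors' size factors. A read counted as 1.63 to 6.16 normalised reads in pancreas libraries and as 0.545 to 0.892 in kidney libraries. With reads divided by library totals instead, the FMTg pancreas would have the lowest median, and the Tg pancreas would overlap the heart.

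Compared between genes per kilobase of exon, the Akt genes had the highest medians of the 5 in Tg mice, although Akt2 overlapped Phlda3 in ovary. In the Tg pancreas the median was 805 normalised reads per kb for Akt1, 677 for Akt2, 146 for Phlda3, 31.8 for Phlda1 and 4.17 for Phlda2. In the Tg kidney it was 292 for Akt1, 169 for Akt2, 83.9 for Phlda3, 62.2 for Phlda2 and 8.63 for Phlda1. Among the Tg medians Phlda2 stood above Phlda1 only in the kidney. In the FMTg kidney Phlda3 reached a median of 533 per kb, above the 291 of Akt1. In the FMTg pancreas it reached 732, against 683 for Akt1.

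**Figure D2:**
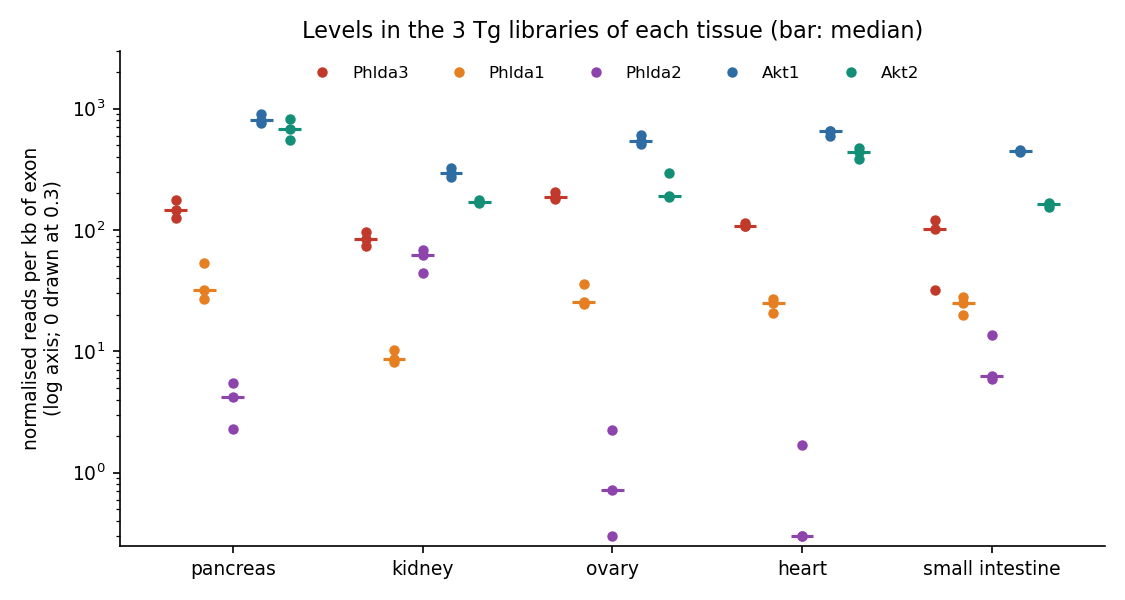
Levels of the 5 genes in the 3 Tg libraries of each tissue, as normalised reads per kilobase of exon on a log axis, with values of 0 drawn at 0.3 and medians as bars. Akt1 has the highest median in every tissue, and Phlda2 is near 0 in ovary and heart but at 62.2 in kidney.

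Phlda1, the stress-inducible relative, was not called in any tissue. Its log2 changes were -0.01 ± 0.44 in pancreas, 0.54 ± 0.20 in kidney, 0.43 ± 0.32 in ovary, 0.62 ± 0.41 in heart and 0.86 ± 0.25 in small intestine (limma adjusted p from 0.563 to 0.995). In the kidney Tg libraries had 22.8, 19.0 and 18.1 normalised reads, and FMTg libraries had 26.3, 26.6, 35.7, 39.8 and 31.4. In the small intestine Tg libraries had 43.9, 55.0 and 61.9, and FMTg libraries had 75.0, 81.2, 121, 108 and 133. The groups did not overlap, with FMTg above Tg, in these 2 tissues, at the shares of 4.17% and 1.69% of genes given above, and they overlapped in the other 3. In the heart Tg libraries had 59.1, 55.6 and 45.4, and FMTg libraries had 60.9, 44.9, 76.5, 129 and 159. There the low-numbered mice had the highest levels and the other 3 FMTg mice bracketed the Tg range, with log2 changes of 1.34 and 0.15 against the Tg mean. Over the 5 tissues the mean change was 0.54 ± 0.20 (limma adjusted p = 0.264), which did not pass. Per tissue, and on the authors' scaling, Phlda1 was lowest in the kidney in both genotypes (Tg median 19.0, FMTg median 31.4). On that scaling it did not overlap the next tissue up, the small intestine in Tg or the pancreas in FMTg.

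Phlda2, the imprinted relative, had most of its reads in the kidney. Tg kidneys had 76.9, 69.7 and 49.6 normalised reads, and FMTg kidneys had 65.8, 57.0, 44.6, 109 and 159. The groups overlapped, and again the low-numbered mice were highest, with a log2 change against the Tg mean of 0.97 where replicates 1 to 3 had -0.20. The kidney change over all 5 was 0.27 ± 0.37 (limma adjusted p = 0.745). Elsewhere reads were few. The small intestine had 4 to 32 reads per library, the pancreas 0 to 11, the heart 0 to 7 and the ovary 0 to 3. The 11 reads were in FMTg pancreas replicate 3, where kidney markers took 0.258% of reads, against at most 0.0105% in the other pancreas libraries. The 7 reads were in FMTg heart replicate 3, from the same mouse, where they took 0.117%, against at most 0.0222% in the other hearts. The part of kidney RNA in these values was not tested. Phlda2 fell under the filter on low values in the ovary and heart, so it was tested in 3 of 5 tissues and called in 0. Its change was -0.43 ± 0.82 in pancreas and -0.22 ± 0.45 in small intestine (limma adjusted p = 0.903 and 0.990). At this depth a change in the pancreas between a fall of 2.28 and a rise of 1.42 on the log2 scale was within the 95% interval.

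Akt1, the main Akt transcript, had the narrowest intervals of the 5 genes outside the small intestine. Its log2 change was -0.26 in pancreas (95% interval -0.64 to 0.12), -0.03 in kidney (-0.26 to 0.19), -0.07 in ovary (-0.37 to 0.24), 0.01 in heart (-0.24 to 0.27) and 0.07 in small intestine (-0.26 to 0.40). None passed (limma adjusted p from 0.762 to 0.990), and the sign in kidney, ovary, heart and small intestine turned under another scale of values, model or choice of mice. In the heart Tg libraries had 2701, 2435 and 2687 normalised reads, and FMTg libraries had 2825, 2409.8, 2471, 2756 and 2710.2. In the small intestine Tg libraries had 1856, 1851 and 1815, and FMTg libraries had 1707, 1828, 1671, 2144 and 2436. The groups overlapped in all 5 tissues. The mean change over tissues was -0.03 ± 0.07 (95% interval -0.17 to 0.12, limma adjusted p = 0.926).

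Akt2, the insulin-responsive kinase, had its largest difference in the pancreas. Tg pancreas libraries had 3923, 4827 and 5878 normalised reads, and FMTg libraries had 3772, 3497, 2263, 2538 and 2815. All 5 FMTg libraries lay below all 3 Tg libraries, as for 5.05% of genes tested there. The log2 change was -0.72 ± 0.20 (limma adjusted p = 0.272), which did not pass over all genes. The 7 acinar markers took 22.6% to 42.8% of reads in the FMTg pancreas and 26.8% to 31.0% in Tg, and FMTg pancreas replicate 4 held 412 reads of Akt2 in all. Elsewhere the change was 0.15 in kidney, 0.04 in ovary, 0.01 in heart and -0.16 in small intestine (limma adjusted p from 0.684 to 0.992).

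Among FMTg mice, Akt2 was higher in the low-numbered mice without overlap in the kidney, ovary, heart and small intestine. In the kidney the low-numbered mice had 1676 and 1731 normalised reads, against 1144 to 1186 in FMTg replicates 1 to 3 and 1196 to 1271 in Tg. In the heart they had 3593 and 4146, against 2067 to 3325 in the other FMTg and 2762 to 3395 in Tg libraries. In the ovary they had 1840.4 and 2389 against 1190.4 to 1442, while Tg ovary replicate 1 had 2119.8 and the other Tg ovaries 1333 and 1346. Against the Tg mean, the low-numbered mice thus stood at 0.47, 0.42 and 0.32 (log2) in kidney, ovary and heart, where replicates 1 to 3 stood at -0.07, -0.21 and -0.19. In the small intestine they had 1088 and 1250.2 against 878 to 1040 in replicates 1 to 3 (0.016 against -0.28), and in the pancreas the order was the other way (-0.85 against -0.63). The low-numbered libraries are also those with fewer genes detected, and the part of that in these values was not tested.

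**Figure D3:**
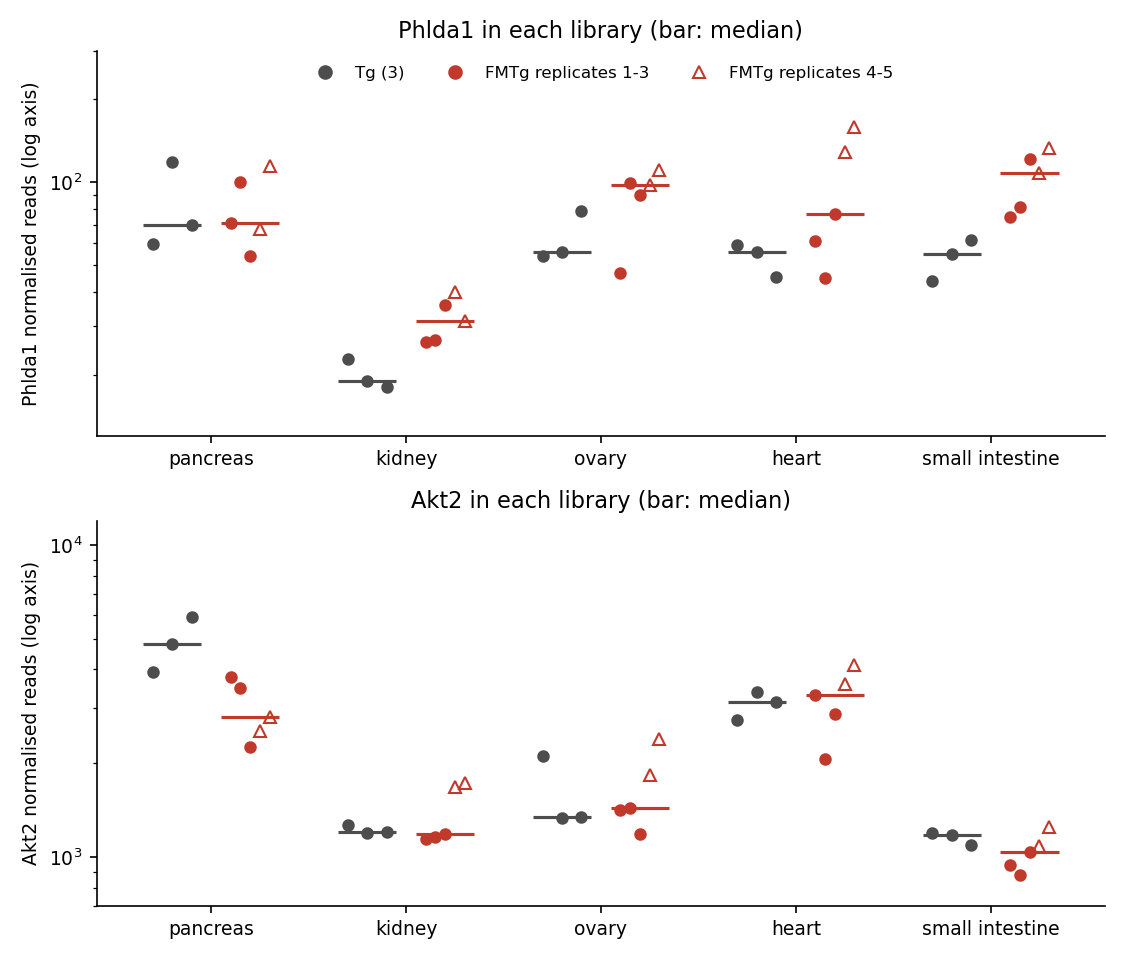
Phlda1 (top) and Akt2 (bottom) in each library, as normalised reads on log axes, with Tg in grey, FMTg in red, open triangles for FMTg replicates 4 and 5, and bars at medians. In the heart both triangles are the highest libraries for both genes, and in the pancreas all FMTg libraries of Akt2 lie below Tg.

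**Figure D4:**
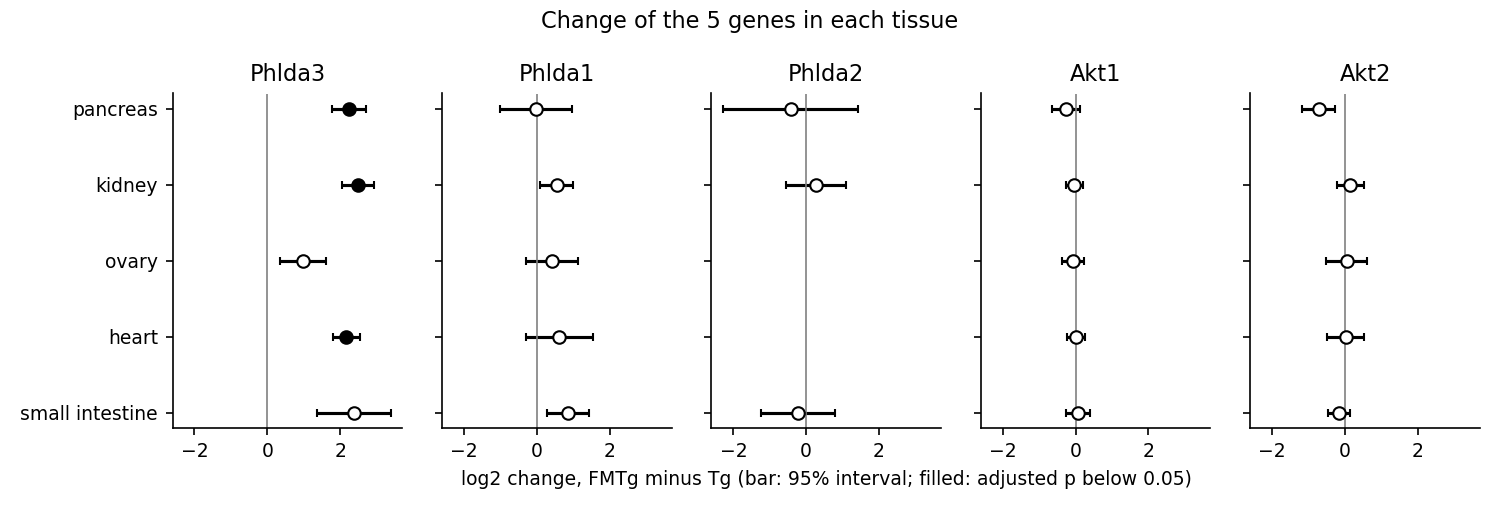
Log2 change, FMTg minus Tg, of the 5 genes in each tissue from the limma fits, with 95% intervals; filled points have an adjusted p below 0.05. Phlda3 is filled in pancreas, kidney and heart, no other point is filled, and Phlda2 was not tested in ovary and heart.

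Whether Phlda3 changed by more than its relatives was tested within libraries, as the FMTg minus Tg difference of the log2 difference between 2 genes, over 15 tests of 3 pairs in 5 tissues. Phlda3 minus Phlda1 gave 2.26 in pancreas, 1.94 in kidney, 0.55 in ovary, 1.55 in heart and 1.52 in small intestine. The exact two-sided permutation p was the smallest possible, 0.0179, in pancreas, kidney and small intestine, and 0.0536 after adjustment over the 15 tests, which misses the threshold. Phlda3 minus Phlda2 gave 2.22 in kidney, the tissue with the most Phlda2, and 2.59 in small intestine (exact p = 0.0179, adjusted 0.0536 in both). The same pair gave 2.67 in pancreas, 1.83 in heart and 1.49 in ovary (exact adjusted p = 0.0731 in each). Phlda2 had few reads outside the kidney. Akt1 minus Akt2 gave 0.46 in pancreas and 0.23 in small intestine, and between -0.18 and -0.00 in the other 3 (exact adjusted p from 0.0731 to 1). With 3 against 5 libraries and 15 tests, none of the 15 passed.

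The transcript of the brake was then set against that of the kinases, as Phlda3 normalised reads per kb for each 100 of Akt1 and Akt2 together. The median was 9.61 in Tg and 62.7 in FMTg pancreas, and 18.2 and 96.1 in kidney. It was 10.2 and 42.8 in heart, 17.2 and 67.0 in small intestine, and 26.9 and 54.6 in ovary. Ranges did not overlap in any tissue, and the closest were in the ovary, with 19.96 to 28.2 in Tg and 33.7 to 63.9 in FMTg. In FMTg kidney replicates 2 and 4 the ratio passed 100, at 139 and 109, so that Phlda3 outnumbered Akt1 and Akt2 together per kilobase. Akt1 made up 56.9% to 77.2% of the sum of both in the medians of the 10 groups, and Akt2 the rest. This is a ratio of transcripts and follows from the values above, so it is given with no test.

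**Figure D5:**
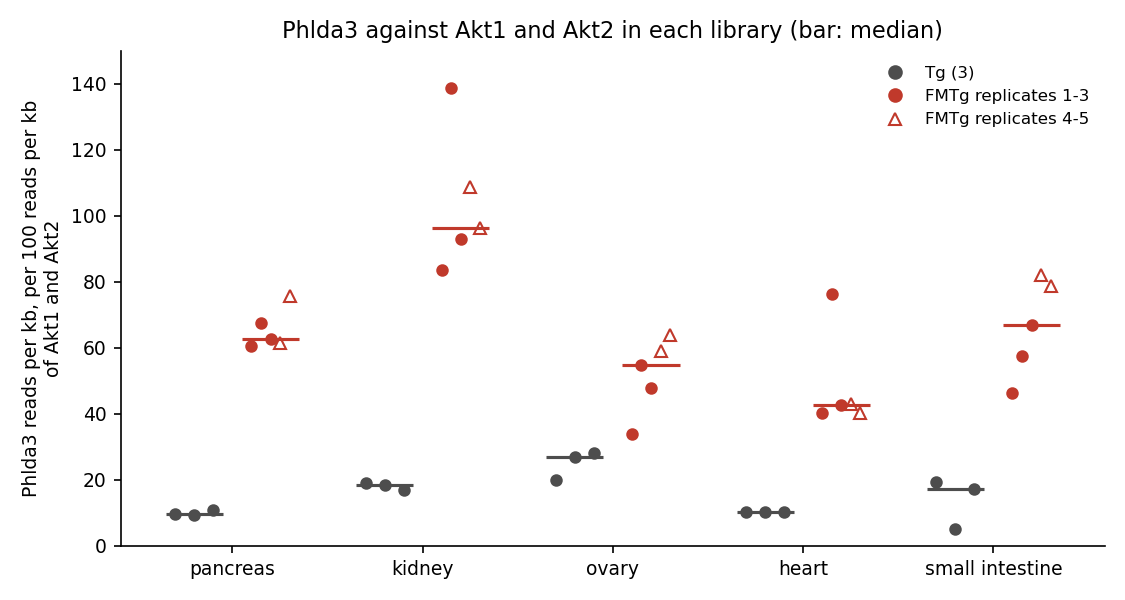
Phlda3 normalised reads per kb for each 100 of Akt1 and Akt2 together, in each library on a linear axis, with Tg in grey, FMTg in red, open triangles for FMTg replicates 4 and 5, and bars at medians. Tg libraries lie between 5.20 and 28.2, and FMTg libraries between 33.7 and 139.

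The other genes of the pathway were read from lists of PI3K subunits, Akt kinases with their activators, brakes, Akt substrates and FOXO target genes. Of 15 brakes on PI3K and Akt, all tested, Phlda3 was the only one called, in the pancreas, kidney and heart and in the mean over tissues. The median log2 change of the list was 0.09 in pancreas, -0.25 in kidney, -0.19 in ovary, -0.10 in heart and -0.07 in small intestine, beside medians over all genes of -0.05, -0.05, -0.02, -0.01 and -0.05. Of the 75 pairs of brakes and tissue, 9 had an unadjusted p below 0.05 in limma (12%, beside 6.33% of the pairs of all genes). Of these, 5 were those of Phlda3, and voom gave 10. Inpp5d, a lipid phosphatase of blood cells, had -0.70 in kidney (limma adjusted p = 0.564). In that tissue macrophage and neutrophil markers were lower in FMTg, and the part of cell content in this value was not tested. Inpp5j had -1.72 in ovary (limma adjusted p = 0.780).

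Of the 10 PI3K subunits none was called in any tissue by limma (smallest adjusted p 0.439, in the mean over tissues) or by voom. Of their 50 pairs of gene and tissue, 4 had an unadjusted p below 0.05 in limma and 4 in voom, beside 6.33% of the 79036 pairs of all genes in limma (5002). Pik3r1, the main regulatory subunit, had 0.53 in pancreas (limma adjusted p = 0.517). Pik3ap1, an adaptor of immune cells, had 1.25 in heart (limma adjusted p = 0.760). In that tissue macrophage markers were higher in FMTg, and the part of cell content in this value was not tested. Of the 8 Akt kinases and activators none was called either (smallest limma adjusted p 0.272, for Akt2 in pancreas), and voom also called 0. Of their 40 pairs of gene and tissue, 2 had an unadjusted p below 0.05 in limma and 2 in voom, again near the share of all genes. Their median change lay between -0.08 and -0.01 in each tissue and in the mean over tissues, close to that of all genes.

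Of 13 Akt substrates, 2 were called in the pancreas, 1 in kidney and 0 in the other 3 tissues, with no gene lower, where 0.446% of all genes were called in pancreas and 0.616% in kidney. Of their 65 pairs of gene and tissue, 7 had an unadjusted p below 0.05 in limma (10.8%, beside the 6.33% of all genes) and 8 in voom. Pancreas and kidney both called Mdm2, which Akt phosphorylates and which is the gene targeted here. Its unadjusted limma p was below 0.05 in every tissue, so most of the 7 pairs are its own. The pancreas also called Foxo3, a transcription factor that Akt holds in the cytoplasm, with a log2 change of 1.11 ± 0.18 (2.16-fold, limma adjusted p = 0.0337). The Foxo3 call was lost without any 1 of the 3 Tg libraries or without FMTg pancreas replicate 1 or 5 (1.05 to 1.16, limma adjusted p from 0.0891 to 0.236), on log2(RPM + 1) (0.91, limma adjusted p = 0.395), with only mice with an ovary library (0.0979), without the trend (0.205) and with the replicate block (0.141). The Mdm2 call in the pancreas was lost without any 1 of the 3 Tg libraries or FMTg replicates 1, 2 or 3 (1.45 to 1.78, limma adjusted p from 0.0534 to 0.190), on log2(RPM + 1) (1.38, limma adjusted p = 0.760), with only mice with an ovary library (0.0670), without the trend (0.165) and with the replicate block (0.0987). The Mdm2 call in the kidney passed under all settings run. Over all tissues the mean change of Foxo3 was 0.34 and did not pass (limma adjusted p = 0.173). In the kidney Tbc1d4, a regulator of glucose transporter traffic, had -0.41 (limma adjusted p = 0.274).

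Of 15 FOXO target genes, of which 14 were tested in the pancreas and the small intestine, none was called in any tissue by limma or voom. Of their 73 pairs of gene and tissue, 5 had an unadjusted p below 0.05 in limma (6.85%, beside the 6.33% of all genes) and 5 in voom. In the heart the ubiquitin ligase genes of muscle wasting, Fbxo32 and Trim63, had -0.91 and -0.90 (limma adjusted p = 0.760 for both). Bcl6, a transcriptional repressor, had -0.72 in pancreas, -0.49 in kidney and -0.77 in ovary (limma adjusted p = 0.726, 0.564 and 0.461). The median change of the list was 0.19 in pancreas, 0.02 in kidney, -0.15 in ovary, -0.20 in heart and -0.20 in small intestine.

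The pattern of each member over the 40 libraries was compared with that of the 14532 genes tested in all tissues, after the Tg mean of the tissue was subtracted. The genes most like Phlda3 were Polk (r = 0.93), Eda2r (0.93), Aen (0.93), Gdf15 (0.92) and Mgmt (0.92). Those most like Phlda1 were Pa2g4 (0.75), Thg1l (0.75) and Mrpl43 (0.72), and those most like Akt1 were Uba1 (0.77), Trim8 (0.77) and Zfp598 (0.75). Akt2 was most like Psmc5 (0.87), Flot1 (0.84) and Psmb2 (0.83). Among the members r was 0.53 between Phlda3 and Phlda1, 0.59 between Akt1 and Akt2, 0.02 between Phlda3 and Akt1, and -0.13 between Phlda3 and Akt2. These r are descriptions over libraries that share mice, genotype groups and depth, with no p. Phlda2, which was not tested in all tissues, was left out.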

How the data were processed

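RNA-seq libraries of 5 tissues were aligned to GRCm38 by STAR 2.6.0b; DESeq2 is the other tool named, per the submitters' processing notes; read counter, annotation release, strand setting and gene filter are not given in the sources used here. The deposited values are log2 variance-stabilised counts of the authors, with 1.65 as the value of no reads. Inverting the transformation gave whole reads for 100% of values (tolerance 0.01), from which normalised reads, reads per kb and depth were computed. Of 18024 identifiers, 17079 matched GENCODE M21 with their version.

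Each tissue was fitted with limma 3.58.1 (R 4.3.3, statmod 1.5.0) on the deposited log2 values, genotype as the only term, with a mean-variance trend, over genes whose tissue mean lay at least 1 above the lowest value; calls are at a Benjamini-Hochberg adjusted p below 0.05. A model of all libraries had mouse as random block (correlation 0.233). Fold changes are powers of 2 of these differences, which understate changes of genes with few reads. The fit per tissue and the model of all libraries were tested on simulated reads. The outcome is given above for the model and is not reported here for the fit per tissue. Alternatives covered single libraries, mice, scaling, filter, trend, voom and block. The genes named beside the members were, of each pathway list, those called and otherwise up to 2 of smallest p, and the 3 to 5 most alike in pattern; some list genes and 1 start sequence are not reported here. Members and lists were chosen with earlier results of these data known. No 2 libraries were alike (at least 78.5% of genes differed in reads). Libraries of a tissue come from separate mice.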

Additional observations from a re-analysis of the deposited data

Results flagged for a closer look

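In 2 of the 25 FMTg groups of 5 libraries examined (5 members in 5 tissues), 1 library stood apart from the others; chance alone flags about 1 in 20 groups. Phlda1 was low in FMTg ovary replicate 1, at a deposited log2 value of 5.72 (46.6 normalised reads), where the other 4 lay between 6.59 and 6.87. That library was also the lowest FMTg ovary for Phlda3. Phlda2 in FMTg ovary replicate 3 was at 2.38, which is 1 read, where the other 4 had no read and lay at the lowest value of 1.65. With those 4 tied, a single read sets the flag, so the rate of 1 in 20 does not hold for this group.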

How the results depend on the processing

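Each result was recomputed with 1 choice changed at a time, except that values of log2(RPM + 1) change scaling and transformation together. Of 502 alternative values of tested log2 changes, 427 kept their direction and their side of the threshold and 47 changed sign. Not all of these are separate checks. In kidney, heart and small intestine the low-numbered mice are the FMTg mice without an ovary library, so leaving out either is the same fit. The replicate block gives the same log2 change as leaving out the low-numbered mice. Of 79 alternative counts of called genes, 53 stayed within 1.5 times the count reported. The 162 alternative differences between 2 members each moved by less than 1 SD between libraries, but 7 of them, all of Akt1 minus Akt2, changed sign (in ovary to 0.042, in heart to at most 0.17). The alternatives for Foxo3 and Mdm2, and those that leave out 1 mouse, were chosen after seeing the data. The log2 change of Phlda3 kept its direction in every tissue and setting. Leaving out 1 library gave 2.13 to 2.37 in pancreas, 2.39 to 2.61 in kidney, 0.82 to 1.14 in ovary, 2.07 to 2.23 in heart and 1.82 to 2.71 in small intestine; leaving out 1 mouse gave a mean over tissues of 1.99 to 2.20 and an adjusted p of the difference between tissues of 0.116 to 0.869. In the kidney it passed under all settings run. Below the threshold fell Phlda3 in pancreas with only mice with an ovary library (2.06), on log2(RPM + 1) (1.97) and with the replicate block (2.13, adjusted p = 0.102), and in the heart without the low-numbered mice and with only mice with an ovary library (2.18 each), on log2(RPM + 1) (2.04) and with the replicate block (2.18, adjusted p = 0.631). In 1 model of all libraries it passed in the small intestine (2.42, adjusted p = 9.90e-06). The cause of these shifts was not tested.

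The count of genes called in the pancreas (68) became 109 without the low-numbered mice, 2 with only mice with an ovary library, 1 on log2(RPM + 1), 10 without the trend, 0 with the replicate block (fewer degrees of freedom) and 340 in 1 model of all libraries. That model gave 58 in kidney, 71 in ovary, 28 in heart and 29 in small intestine. The heart count (3) became 1 without the low-numbered mice, with only mice with an ovary library and on log2(RPM + 1), and 0 with the replicate block. Leaving out 1 library gave 9 to 93 in pancreas (9 without Tg replicate 1 or 2, 25 without Tg 3, and 29, 42 and 43 without FMTg 1, 2 or 5), 46 to 94 in kidney (47, 46 and 52 without Tg 1, 2 or 3), 0 to 3 in ovary (3 without Tg 2, 1 without FMTg 3) and 1 to 4 in heart (1 without Tg 2).

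No call of another member changed, but small differences changed sign. Without the low-numbered mice, and with the replicate block, Phlda2 was at 0.35 in pancreas and -0.20 in kidney, Akt1 at -0.023 in heart and -0.086 in small intestine, and Akt2 at -0.073 in kidney, -0.21 in ovary and -0.19 in heart. With only mice with an ovary library the values were the same in kidney, heart and small intestine, Phlda2 was at 0.41 in pancreas, and the ovary kept all its libraries. On log2(RPM + 1) Phlda2 was at 0.024 in pancreas and 0.010 in the mean over tissues, Akt1 at 0.0098 in ovary and -0.061 in heart, and Akt2 at -0.061 in heart; these values moved the median of all genes to -0.14 in pancreas and -0.13 in kidney. In 1 model of all libraries Phlda1 was at 0.011 in pancreas and Akt1 at 0.012 in kidney. Leaving out 1 library gave -0.20 to 0.26 for Phlda1 in pancreas, -0.48 to 0.043 for Phlda2 in small intestine, -0.093 to 0.030, -0.035 to 0.045 and -0.0093 to 0.13 for Akt1 in kidney, heart and small intestine, and -0.10 to 0.26 and -0.088 to 0.16 for Akt2 in ovary and heart; leaving out 1 mouse gave -0.057 to 0.015 for the mean of Akt1. Replicate numbers do not pair the libraries, since Tg and FMTg are different mice and same-numbered libraries correlated between -0.59 and 0.59. Few reads limit Phlda2 outside the kidney.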
